A study of Mus musculus with 16 samples.

Results

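The genes described here encode eukaryotic translation initiation factors (eIFs). They were chosen by symbol in the platform annotation, as those starting with Eif1, Eif2b, Eif2s, Eif3, Eif4, Eif5 or Eif6 and without the pseudogene mark. A gene was counted when at least 1 probe set named it alone, and its probe set with the highest mean stood for it, which gave 41 genes of 18194 on the array. Of 50 protein-coding mouse genes with such symbols, 9 are not analysed here: Eif1, Eif2s1, Eif3g, Eif4a3l1, Eif4e1b and Eif4g1 had no probe set listed for them, and Eif3j1, Eif3j2 and Eif4ebp3 appeared only on probe sets that named another gene too. Livers came from 16 male KK-Ay mice aged 11 weeks, with 1 array per mouse. KK-Ay mice carry the Ay allele of agouti on the KK background and become obese and diabetic. In the MSE diet group, 8 mice ate a diet with 0.1% maple syrup extract (MSE), and in the normal diet group, 8 mice ate the same formula without it, pair-fed for 43 days and then kept 16 h without food. The comparison sets liver expression with the extract against that without it, and both groups carry the same allele.

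Initiation factors load a messenger RNA onto the small ribosomal subunit and find its start codon. The factor eIF2 brings the initiator tRNA and is recharged by eIF2B, eIF3 scaffolds the small subunit, and the cap-binding complex eIF4F, with its helicase eIF4A, recruits and unwinds the message. eIF1 and eIF1A hold the subunit in a scanning state, and eIF5 and eIF5B then let the large subunit join. In liver, feeding, fasting and insulin act on these steps mainly through phosphorylation of eIF2 and of the eIF4E-binding repressors, which an RNA array does not measure.

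Of the 41 genes, 24 were higher and 17 lower in livers of MSE-fed mice, and none passed the test over all genes. The 6 higher genes with an unadjusted p under 0.05 were Eif1ax, Eif2s3x, Eif4a2, Eif4b, Eif4e2 and Eif3e, and the 2 lower ones were Eif1a and Eif5a. At an adjusted p under 0.05 limma called 0 initiation factor genes, as it called 0% of the 18194 genes tested, and the smallest adjusted p among the 41 was 0.34. The 6 higher genes are 14.6% of the 41, beside 2.59% of all genes higher at the same unadjusted p, and the 2 lower ones are 4.88%, beside 4.07%. These counts changed with the processing, though those after quantile normalization follow ranks among all probe sets and cannot decide whether a gene's difference holds. After quantile normalization 3 of 39 genes were higher at an unadjusted p under 0.05, none of them among the 6, beside 4.57% of all genes. After centring on array medians 0 of 41 were, beside 0.863%, and with the mean of a gene's probe sets 2 of 41, beside 2.52%. An exact rank sum test on the same values gave 5 higher and 1 lower at an unadjusted p under 0.05, where 2.48% and 3.94% of all genes passed, and 0 after adjustment. The median difference, MSE minus normal, was 0.20 SDs over the 41 genes and -0.02 SDs over all genes, where 1 SD is the pooled SD of a gene within diets. No member had 8 MSE values lying all above or all below the 8 normal-diet values, a separation seen in 0.022% of all genes for higher and 0.0275% for lower.

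**Figure D1:**
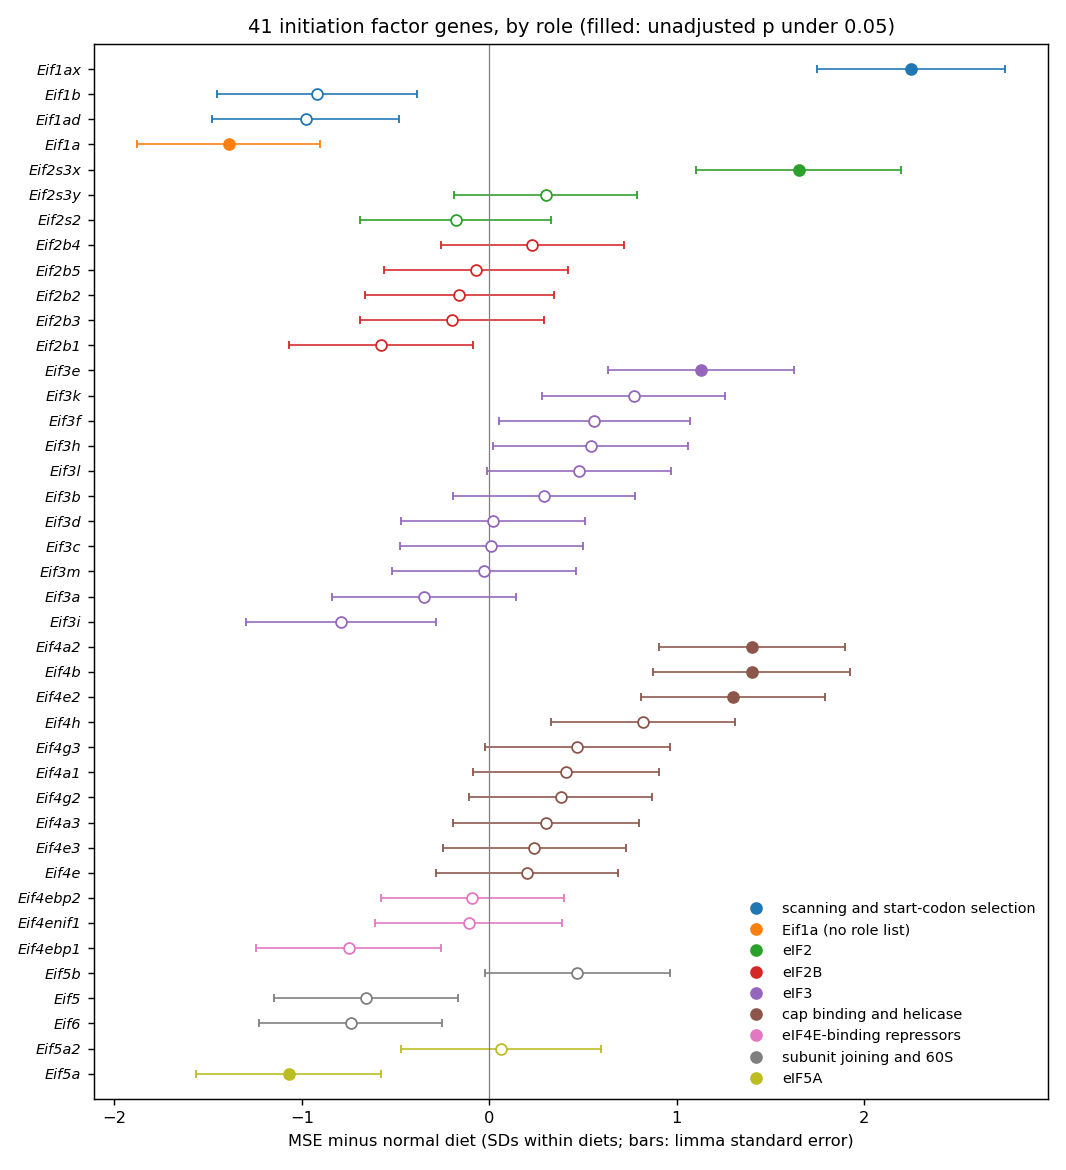
Difference between diets for each of the 41 initiation factor genes, grouped and coloured by role. The x axis gives MSE minus normal diet in SDs within diets, bars are limma standard errors, and filled points had an unadjusted p under 0.05. As deposited, all 10 cap-binding and helicase genes lie right of 0 and all 3 repressor genes left of it, whereas 6 and 2 were higher after quantile normalization and all 3 repressors after centring, but 0 of them after centring without MSE replicate 6. Eif1ax lies farthest right at 2.25 SDs.

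RefSeq start regions are shown for the 4 of these 8 genes, all higher by value, that have a single start in the table, so that these genes can be read beside their promoters. Each line holds 100 bases of GRCm38.p6 on the gene's strand, 70 before the annotated start and 30 from it. Capitals mark GGGCGG on either strand (read as CCGCCC on the other), and, in Eif2s3x, the pyrimidine tract that begins at the start.
Eif1ax, chrX:159372108-159372207, plus strand: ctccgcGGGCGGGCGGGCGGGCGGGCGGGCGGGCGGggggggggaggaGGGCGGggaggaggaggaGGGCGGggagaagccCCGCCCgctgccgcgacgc
Eif2s3x, chrX:94212622-94212721, minus strand: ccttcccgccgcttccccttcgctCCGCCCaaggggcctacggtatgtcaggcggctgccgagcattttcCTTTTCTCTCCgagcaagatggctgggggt
Eif4a2, chr16:23107398-23107497, plus strand: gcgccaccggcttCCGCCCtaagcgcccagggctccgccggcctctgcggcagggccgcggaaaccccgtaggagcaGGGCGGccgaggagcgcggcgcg
Eif4b, chr15:102073703-102073802, plus strand: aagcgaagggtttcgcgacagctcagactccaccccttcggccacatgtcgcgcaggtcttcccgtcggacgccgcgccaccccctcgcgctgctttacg

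The GC box GGGCGG occurred 10 times in the Eif1ax window, counting overlapping matches on both strands, 1 time in Eif2s3x, 2 times in Eif4a2 and 0 times in Eif4b, and 23.8% of all 32817 start regions of this length hold at least 1. None of the 4 windows held TATAAA on either strand, which 5.24% of all windows hold. A run of C and T starting with C at the first transcribed base is the mark of TOP messages, whose translation follows mTORC1. Eif2s3x had such a tract of 11 bases. A tract of at least 5, at any listed start, was found in 2 of the 32 initiation factor genes with a start in the table, Eif2s3x and Eif3f. It was found at 2.5% of all starts, a share counted by start and not by gene. These matches describe the sequence only.

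The deposited values are log2-like and hardly vary between mice, so differences are given in SDs or in millionths of a log2 unit and are not fold changes of a transcript. The SD within diets ran from 1.42 to 189 millionths over the 41 genes, with a median of 5.43, against a median of 5.6 over all genes. The array of MSE replicate 6 stood apart: its median over all probe sets lay at -110 millionths from the mean of the other 15 arrays, whose medians spanned 43.4 millionths. The mean of the array medians differed by -13.1 millionths, MSE minus normal, and by 0.689 without that array. Of the 41 genes, 36 had a difference between diets smaller than 13.1 millionths, so centring on array medians moves them more than the diets differ. Without MSE replicate 6, 5 genes were higher and 1 lower at an unadjusted p under 0.05, beside 2.43% and 3.95% of all genes. The median was then 0.15 SDs, beside -0.03 SDs over all genes. Hepatocyte markers were at levels from 12.53 to 14.34 log2 units in the 6 measured of 7. Of these 6, 5 were higher and 1 lower by value with MSE, 0 of them at a limma unadjusted p under 0.05. Of 27 measured markers for 8 other cell types, 3 were higher (Kdr, Cd79a and Cela1) and 1 lower (Stab2) at an unadjusted p under 0.05, beside 2.59% and 4.07% of all genes. By value, all 4 stellate cell, both T cell and both exocrine pancreas markers measured were higher, and all 5 Kupffer cell markers and all 3 neutrophil markers were lower. Among the markers of these 5 lists Cela1 alone had an unadjusted p under 0.05. The mean Kupffer score, in SDs, ran from -1.09 to 0.85 in MSE mice and from -1.01 to 1.07 in normal-diet mice, and the neutrophil score from -0.77 to 0.33 in MSE mice and from -0.60 to 1.54 in normal-diet mice. Their part in the results below was not tested, and in bulk liver fewer cells of a type and less RNA per cell cannot be told apart.

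Among the factors of scanning and start-codon selection, Eif1ax had the smallest p of all 41 genes. Eif1ax, on the X chromosome, encodes eIF1A, which binds the small subunit and promotes scanning, and its level was 8.18 log2 units. Set against its mean of 16 mice, Eif1ax lay at -0.86, 3.12 and 6.5 millionths (lowest, median, highest) in MSE mice and at -6.67, -3.95 and 3.33 millionths in normal-diet mice. The diets overlapped through 1 high normal-diet mouse, replicate 8, which stood above 4 MSE mice, while the other 7 normal-diet mice all lay below the lowest MSE mouse. Eif1ax averaged 3.22 ± 2.7 millionths in MSE mice and -3.22 ± 3.03 in normal-diet mice (SD, n = 8 each), a difference of 6.44 (SE 1.44) or 2.25 SDs. The MSE mouse was higher in 60 of 64 pairs, with a limma unadjusted p of 0.000467 and an adjusted p of 0.34. The difference was 0.89 SDs (unadjusted p 0.0898) after quantile normalization, 0.63 SDs (unadjusted p 0.225) after centring and 0.84 SDs (unadjusted p 0.107) with the mean of its probe sets. After centring without MSE replicate 6 it was 0.38 SDs (limma unadjusted p 0.468). In the values as deposited, without normal-diet replicate 8, the difference was 3.27 SDs with an adjusted p of 0.162 and no overlap of the diets.

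Eif1a, an autosomal gene for a close relative of the same protein, went the other way. Its values were -203, -38.4 and 97 millionths (lowest, median, highest) in MSE mice and -53.3, 60.3 and 118 millionths in normal-diet mice. MSE replicate 8 was high, above 7 of the 8 normal-diet mice, and the other MSE mice were mostly low, so that the MSE mouse was lower in 52 of 64 pairs. The difference was -1.39 SDs, with an unadjusted p of 0.0121 and an adjusted p of 0.629. Whether Eif1a and Eif1ax differ in their response was not tested. The 2 other genes of this step were also lower by value as deposited and after centring without MSE replicate 6, and higher after centring with it. Eif1b, a close copy of the eIF1 gene, differed by -0.92 SDs (unadjusted p 0.104), and Eif1ad, an eIF1A domain gene, by -0.98 SDs (unadjusted p 0.0671).

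Of the 3 measured eIF2 genes, Eif2s3x alone had an unadjusted p under 0.05. It encodes the gamma subunit, which binds GTP and the initiator tRNA, and like Eif1ax it lies on the X chromosome. Eif2s3x values were -0.982, 0.916 and 3.56 millionths (lowest, median, highest) in MSE mice and -2.89, -1.32 and 1.02 millionths in normal-diet mice, so the diets overlapped over a part of their range. It was 1.65 SDs higher, in 56 of 64 pairs, with an unadjusted p of 0.00882 and an adjusted p of 0.606. Eif2s3y, the Y-linked copy, spread far more widely, from -70 to 30.8 millionths in MSE mice and from -48.7 to 24.5 in normal-diet mice. Its difference was 0.30 SDs with an unadjusted p of 0.542. Eif2s2, the beta subunit gene, differed by -0.18 SDs (unadjusted p 0.725).

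The 5 genes of eIF2B, the exchange factor that reloads eIF2 with GTP, lay close together. Of them 4 were lower and 1 higher by value as deposited (4 higher after quantile normalization, 5 after centring and 1 after centring without MSE replicate 6), none at an unadjusted p under 0.05, and their differences ran from -0.58 to 0.23 SDs. Eif2b1, of the regulatory alpha subunit, was the farthest from 0, at -13, 0.77 and 5.92 millionths (lowest, median, highest) in MSE mice and -5.8, 3.7 and 5.66 in normal-diet mice. MSE replicates 1 and 3 were its lowest mice, and the remaining 6 MSE mice lay within the normal-diet range or above it. Its unadjusted p was 0.256. Eif2b5, which holds the catalytic site, was higher in the MSE mouse in 32 of 64 pairs, with a difference of -0.07 SDs.

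Of 11 measured eIF3 subunit genes 8 were higher and 3 lower by value as deposited, with 7 higher after quantile normalization 11 after centring and 6 after centring without MSE replicate 6, and the median difference was 0.29 SDs. Eif3e, a subunit of the core of mammalian eIF3, had values of -5.18, 2.95 and 5.55 millionths (lowest, median, highest) in MSE mice and -7.34, -2.6 and 2.96 millionths in normal-diet mice. All but 1 of the MSE mice lay above 0 and 3 of the normal-diet mice did too. Eif3e was 1.13 SDs higher, in 52 of 64 pairs, at an unadjusted p of 0.0381 and an adjusted p of 0.716. Eif3k was 0.77 SDs higher, Eif3f 0.56 SDs, Eif3h 0.54 SDs and Eif3l 0.48 SDs, with unadjusted p from 0.136 to 0.342. Eif3b, Eif3c, Eif3d and Eif3m lay between -0.03 and 0.29 SDs. Eif3a, the largest scaffold subunit, was at -0.35 SDs (unadjusted p 0.482). Eif3i, whose level of 10.25 log2 units was steady in normal-diet mice, was at -0.79 SDs, and its SD was 3.44 millionths in MSE mice and 0.811 millionths in normal-diet mice.

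All 10 measured genes of cap binding and the helicase were higher by value as deposited, with a median of 0.44 SDs, and 3 of the 10 had an unadjusted p under 0.05. After quantile normalization 6 were higher, and Eif4a2 had no spread left there. Beside the 3 of 10, 2.59% of all genes were higher at an unadjusted p under 0.05 as deposited. Beside the 10 of 10, 48.3% of all genes were higher by value. The 10 of 10 holds for the probe sets that stand for the genes. Eif4a1, Eif4e, Eif4e2, Eif4g2, Eif4g3 and Eif4h also had lower probe sets. All probe sets of Eif4b and Eif4e3 were higher, and Eif4a2 and Eif4a3 had 1 each. Eif4a2, 1 of the 2 genes for the eIF4A helicase, had values of -3.25, 2.6 and 6.58 millionths (lowest, median, highest) in MSE mice and -9.13, -1.73 and 2.28 millionths in normal-diet mice. Normal-diet replicates 2 and 3 were lowest, and of the MSE mice only replicate 6 was below 0. Eif4a2 was 1.40 SDs higher, in 54 of 64 pairs, with an unadjusted p of 0.013 and an adjusted p of 0.629.

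Eif4b, the gene of a cofactor that speeds the helicase, had values of -2.24, 1.34 and 4.03 millionths (lowest, median, highest) in MSE mice and -3.21, -0.984 and 0.341 millionths in normal-diet mice. The 6 highest mice were all MSE-fed, while MSE replicates 5 and 1 lay among the normal-diet mice. Eif4b was 1.40 SDs higher, in 55 of 64 pairs, with an unadjusted p of 0.0176 and an adjusted p of 0.654. Eif4e2 encodes a cap-binding protein that is known mainly for repressing messages. Its values were -2.52, 1.65 and 10.8 millionths in MSE mice and -6.44, -3.23 and 1.88 millionths in normal-diet mice, and 3 MSE mice (replicates 2, 3 and 8) stood above all others. It was 1.30 SDs higher, in 50 of 64 pairs, with a limma unadjusted p of 0.0189 and an exact rank sum p of 0.065.

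The other 7 cap-binding and helicase genes lay between 0.20 and 0.82 SDs, and none had an unadjusted p under 0.05. Eif4h, another helicase cofactor, was at 0.82 SDs (unadjusted p 0.116). Eif4a1, the other eIF4A helicase gene, was at 0.41 SDs, and Eif4a3, which works in the exon junction complex, was at 0.30 SDs. The level of Eif4a3, 5.71 log2 units, was the lowest of the 41 genes, where values on the arrays start at 5.05. The scaffold gene Eif4g3 was at 0.47 SDs and its relative Eif4g2 at 0.38 SDs. Eif4e3 was at 0.24 SDs. MSE replicate 1 was the highest mouse for Eif4g2 and for Eif4e3, at 2.89 and 2.75 SDs from their means of 16 mice. Eif4e, the cap-binding protein that the repressors target, had the widest spread of the 41 genes, from -198 to 380 millionths in MSE mice and from -118 to 360 millionths in normal-diet mice. Its difference was 0.20 SDs, and the MSE mouse was higher in 30 of 64 pairs.

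The 3 measured eIF4E-binding repressor genes were all lower by value as deposited and after centring without MSE replicate 6, and all higher after centring with it. Eif4ebp1, the best known of the repressors that mTORC1 phosphorylates, had values of -6.8, -0.926 and 3.57 millionths (lowest, median, highest) in MSE mice and -5.08, 1.67 and 6.79 millionths in normal-diet mice. The ranges overlapped over most of their length, and the difference was -0.75 SDs (unadjusted p 0.15, adjusted p 0.852). Eif4ebp2 was at -0.09 SDs and Eif4enif1, which carries eIF4E into the nucleus, at -0.11 SDs. After quantile normalization Eif4ebp1 and Eif4ebp2 were higher by value, and Eif4enif1 was at -1.71 SDs.

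Of the subunit joining factors Eif5b was higher by value as deposited and Eif5 and Eif6 lower (2 of 3 higher under either scaling, 1 after centring without MSE replicate 6), none at an unadjusted p under 0.05. Eif6, whose protein keeps the large subunit free, had values of -54.1, 0.635 and 23.5 millionths (lowest, median, highest) in MSE mice and -23.1, 13.1 and 28.8 millionths in normal-diet mice, with MSE replicates 1, 3 and 5 lowest. Its difference was -0.74 SDs (unadjusted p 0.15). Eif5, the GTPase activator of eIF2, was at -0.66 SDs, and Eif5b, the GTPase of subunit joining, at 0.47 SDs. Eif5a, which despite its name acts mostly in elongation and carries hypusine, had a level of 11.15 log2 units. Its values were -8.15, -1.8 and 4.57 millionths in MSE mice and -5.03, 4.01 and 5.69 millionths in normal-diet mice. MSE replicate 8 was the only MSE mouse above 0, and 5 normal-diet mice were. Eif5a was at -1.07 SDs, lower in 49 of 64 pairs, with an unadjusted p of 0.0469 and an adjusted p of 0.739. Its relative Eif5a2 was at 0.06 SDs.

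**Figure D2:**
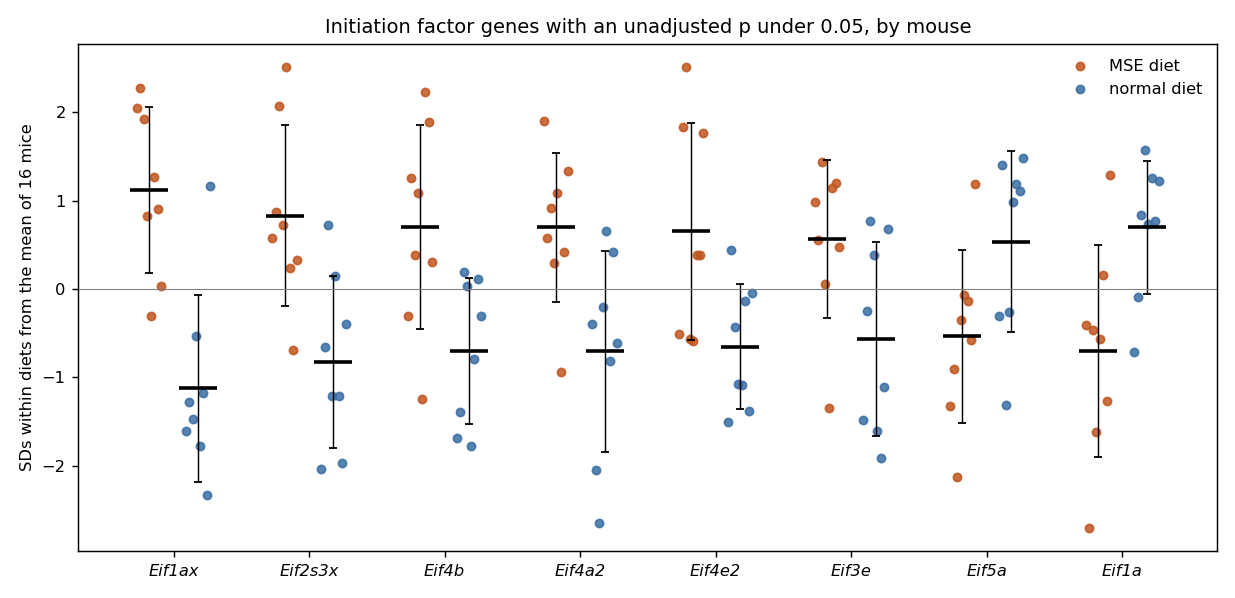
The 8 initiation factor genes with an unadjusted p under 0.05, by mouse. The y axis gives each mouse's value from the mean of 16 mice in SDs within diets, points are mice (MSE left, normal diet right), and bars are the mean ± SD of 8 mice. Every gene has mice of both diets in the same range. For Eif1ax only normal-diet replicate 8 reaches into the MSE range.

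Several probe sets measured 31 of the 41 genes, and for 13 of the 31 every probe set had the same direction. Over the 111 probe sets of the 41 genes, 60 were higher and 51 lower, 10 and 4 of them at an unadjusted p under 0.05, where 2.63% and 3.9% of all probe sets naming 1 gene passed. For Eif1ax all 3 probe sets were higher, at 2.25, 0.71 and 0.21 SDs, and only the first had an unadjusted p under 0.05. For Eif2s3x all 3 were higher, 2 of them at 1.65 and 1.61 SDs. All 4 probe sets of Eif3e and all 3 of Eif4b were higher, and 2 of each had an unadjusted p under 0.05. Both probe sets of Eif5a and both of Eif1a were lower. Eif4e2 was split: 3 of its 5 probe sets were higher and 2 lower, and 1 of the lower ones was at -1.16 SDs with an unadjusted p of 0.0335. Eif4g2 had 1 probe set at -1.35 SDs (unadjusted p 0.0147) and Eif4ebp2 1 at 1.07 SDs (unadjusted p 0.0453), neither of them the one that stands for the gene. The probe sets that stand for Eif1a and Eif5a have the suffix _s_at and that for Eif2s3x _x_at, which on this kind of array mark probes that can match other transcripts too, so these values may hold signal of related genes.

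**Figure D3:**
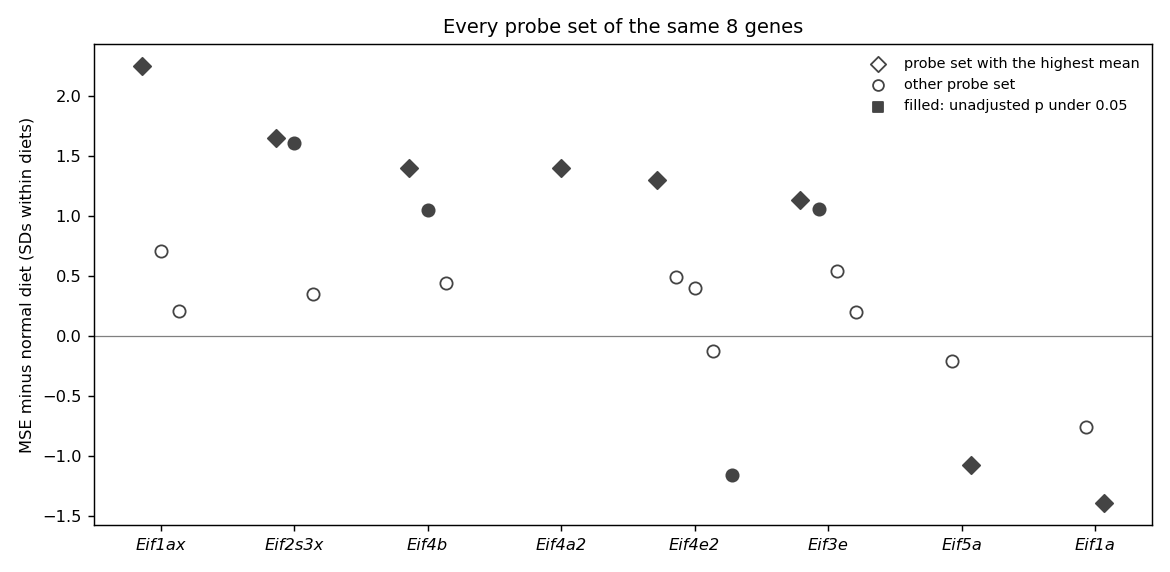
MSE minus normal diet, in SDs within diets, for every probe set of the 8 genes with an unadjusted p under 0.05. Diamonds are the probe sets that stand for a gene, circles its others, and filled symbols had an unadjusted p under 0.05. The probe sets of Eif4e2 lie on both sides of 0, from -1.16 to 1.30 SDs, and those of each other gene on 1 side.

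Within a mouse the 41 genes did not follow the diet closely. The number of genes above their own median of 16 mice was 9, 24 and 32 (lowest, median, highest) in MSE mice and 10, 19.5 and 31 in normal-diet mice. The ranges overlapped almost fully, with MSE replicate 5 and normal-diet replicate 1 lowest and MSE replicate 8 and normal-diet replicate 3 highest. Some same-numbered mice had like counts (MSE, then normal diet): 12 and 10 for replicate 1, 9 and 11 for replicate 5, 32 and 25 for replicate 8. Replicate 6 had 29 and 16, and no label ties mice of the same number. Over all genes the same share was 45% to 52.1% in MSE mice and 47.8% to 53.2% in normal-diet mice. Of the 6 genes higher at an unadjusted p under 0.05, MSE replicates 2, 3 and 8 had all 6 above the mean of 16 mice and MSE replicate 5 had 2, while normal-diet mice had between 0 and 3. The 6 genes were picked in these same mice for being higher with MSE, so higher counts in MSE mice follow from that choice.

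**Figure D4:**
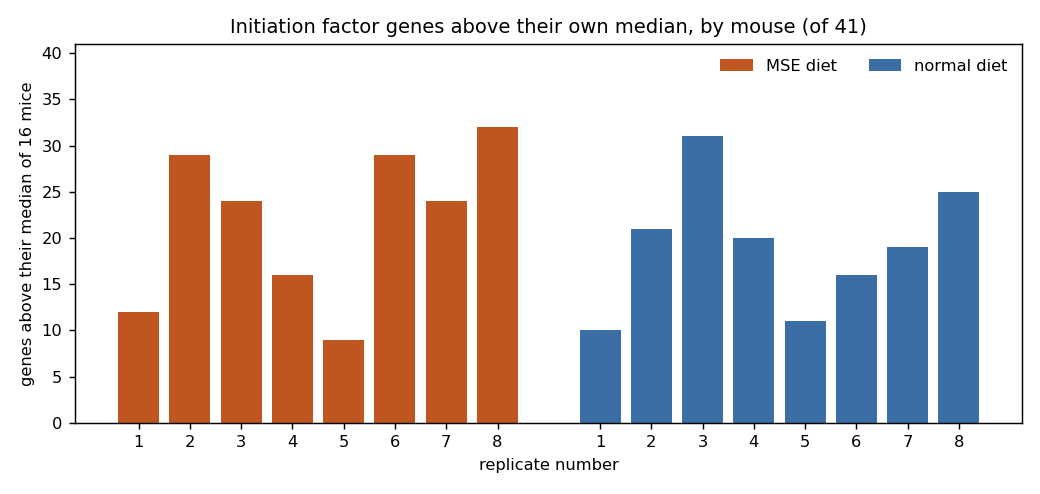
Number of the 41 initiation factor genes above their own median of 16 mice, for each mouse (bars, MSE diet left, normal diet right, x axis the replicate number). Counts run from 9 to 32 in MSE mice and from 10 to 31 in normal-diet mice.

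The directions of many members changed after quantile normalization and, through the median of 1 array, after centring. Quantile normalization sets each value by its rank on the array. Deposited values hardly vary between mice, so a gene's rank can stay fixed or move as other probe sets cross it. The turns and calls after this scaling therefore cannot decide whether a gene's own difference holds. After quantile normalization 39 genes kept any spread, since Eif4a2 and Eif5a then had 1 value on all arrays, and 28 of the 39 were higher. Of the 39, 15 turned direction, 5 that had been higher and 10 that had been lower. Those that then had an unadjusted p under 0.05 were Eif4e3, Eif5b and Eif3f, higher, and Eif4enif1, lower, and 0 of the 8 found as deposited were among them, where 4.57% and 3.87% of all genes passed. Eif1ax was 0.89 SDs higher after it. Eif1a turned to 0.05 SDs. After centring on array medians 39 of 41 genes were higher, 15 having turned, and the median was 0.41 SDs, beside 0.42 SDs over all genes. At an unadjusted p under 0.05 Eif1a alone was left, at -1.01 SDs, beside 0.863% higher and 0.401% lower over all genes. Centring without MSE replicate 6 left 21 of 41 higher and a median of 0.00 SDs, and turned 3 genes instead of 15. Most turns under centring thus rest on the median of that array.

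**Figure D5:**
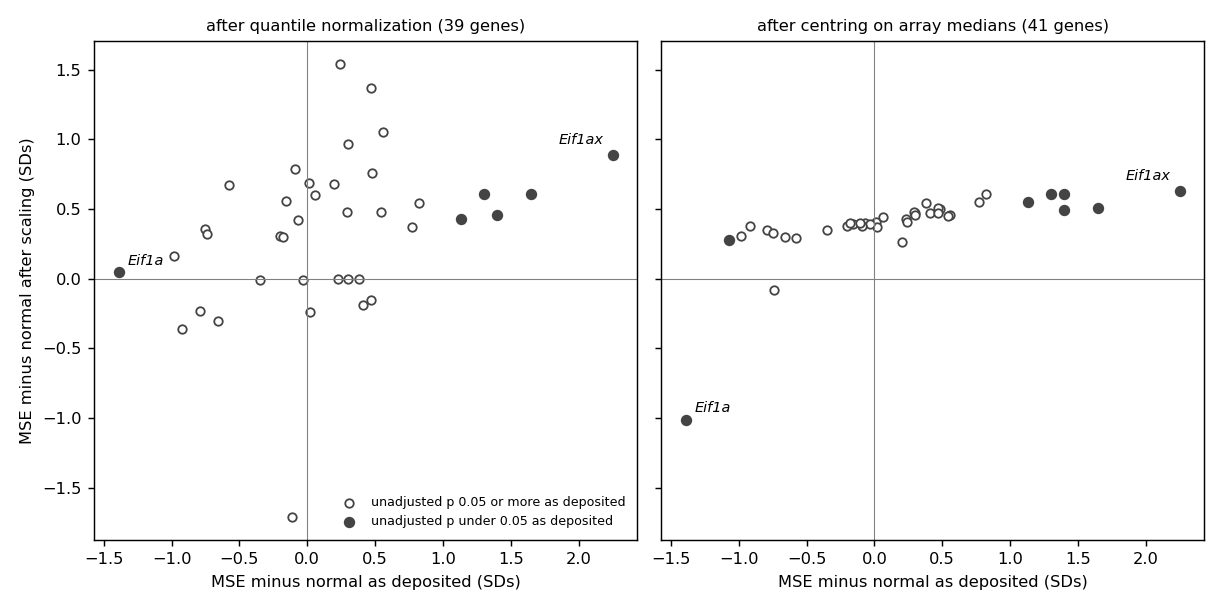
MSE minus normal diet for the initiation factor genes as deposited (x axis) and after quantile normalization or centring on array medians (y axis), all in SDs within diets. Filled points had an unadjusted p under 0.05 as deposited. After centring nearly all genes lie near 0.4 SDs, and Eif1a lies apart at -1.01 SDs.

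In the authors' deposited table, which gives false discovery rate estimates per probe set in each direction, 1 of the 41 genes had a rate under 0.05. The estimates run past 1, up to 1.35 for Eif3b in the authors' deposited table, so they are not proportions and are used as named there. In the authors' deposited table that gene was Eif1a, with a rate of 0.00106 for lower expression with MSE, beside 3.76% of all genes in that direction. For higher expression the authors' deposited table put 0 of the 41 under 0.05, beside 2.52% of all genes, and gave Eif1ax a rate of 0.744. Eif4e2 had 0.972 there for higher and 0.996 for lower expression. Eif2s3x, Eif4a2, Eif4b and Eif3e, higher here by value, had smaller rates there for lower expression (0.991, 0.997, 0.991 and 0.993). Their rates for higher expression were 1.29, 1.04, 1.28 and 1.09. Eif5a, lower here by value, had 0.992 for higher and 1.17 for lower.

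Genes that act on or beside initiation were examined as 4 further lists, and limma called 0 of them at an adjusted p under 0.05. Of 12 genes of the eIF2 kinases and the integrated stress response, 1 was higher and 2 lower at an unadjusted p under 0.05, beside 2.59% and 4.07% of all genes. Eif2ak1, the heme-regulated eIF2 kinase, was at -2.31 SDs, lower in 61 of 64 pairs (unadjusted p 0.000355, adjusted p 0.323), and Eif2ak4, the kinase that senses uncharged tRNA, was at -1.20 SDs (unadjusted p 0.0272). Atf4, the transcription factor whose translation eIF2 phosphorylation favours, was at -0.16 SDs and Ddit3 at -0.29 SDs. Of 14 measured genes of the mTORC1 and Mnk input to eIF4F, 8 were higher and 6 lower by value and 0 had an unadjusted p under 0.05. The smallest p there belonged to Deptor, an mTOR inhibitor, at 0.87 SDs (unadjusted p 0.0943), and to Rps6kb2, an S6 kinase gene, at -0.84 SDs (unadjusted p 0.105).

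Initiation partners were lower by value in 11 of 15 measured genes, 4 of them at an unadjusted p under 0.05, beside 4.07% of all genes, with a median of -0.74 SDs. By value 4 of the 15 were higher, beside 48.3% of all genes. After quantile normalization 7 of the 15 were higher, after centring 11, and after centring without MSE replicate 6 there were 3. Dap, whose relative in zebrafish eggs binds dormant ribosomes, was at -1.30 SDs (unadjusted p 0.0174), and Dhx29, a helicase for structured leaders, at -1.21 SDs (unadjusted p 0.0262). Eif2d and Paip2, the remaining genes of the 4, were at -1.14 and -1.27 SDs. In elongation and release 2 of 13 measured genes were higher and 1 lower at an unadjusted p under 0.05, beside 2.59% and 4.07% of all genes. Eef2, the translocation factor, was 1.40 SDs higher in 56 of 64 pairs (unadjusted p 0.0143), Eef1b2 was 1.07 SDs higher, and the ribosome rescue gene Hbs1l was at -1.24 SDs (unadjusted p 0.0281).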

How the data were processed

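Each array held labelled cRNA of 1 mouse liver. Values deposited by the authors covered 45101 probe sets on a scale taken as log2, since it ran from 5.05 to 14.6. The submitters' processing notes name R 3.2.2. How the authors summarized and normalized probes is not given in the sources used here. Their other deposited table repeats these values (largest difference 0) beside false discovery rate estimates. Of the probe sets, 34958 named 1 gene in the platform annotation, and 34754 of these matched a RefSeq gene ID, with 0 symbols changed.

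Diets were compared over all genes with limma 3.58.1 in R 4.3.3 (lmFit, eBayes, two-sided, Benjamini-Hochberg), with no covariate, after a test of the fit on simulated data. Same-numbered mice had deviations correlated from -0.03 to 0.22 over genes, above 0.1 in 5 of 8 pairs and not in all. Of the 8 MSE mice, 5 correlated best with the normal-diet mouse of their own number. No label ties these mice, so numbers were not taken as pairs in the main fit, and a replicate block was run as an alternative. Named with full values were members at an unadjusted p under 0.05 and the member with the smallest p in each role, with other members by difference. Of each further list the 2 genes with the smallest p were named, and others after their values were seen. Members, lists and tests were chosen with earlier results of these data known. The labels give separate mice and no batch, and the number of mice limits precision. Alternatives were quantile normalization, centring, genes above the median level, a trended robust variance, array weights, a replicate block, other probe set summaries, an exact rank sum test, an adjusted p under 0.1 and leaving out each mouse. Both scalings without MSE replicate 6 were added after seeing the data. Probe sets without spread after quantile normalization were dropped there. Further steps used Python 3.11.15, NumPy 2.4.6, SciPy 1.17.1, pandas 2.3.3 and matplotlib 3.10.9.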

Additional observations from a re-analysis of the deposited data

Results flagged for a closer look

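Dixon's test was run on each gene in each diet, 82 groups of 8 mice in all, and a single mouse lay beyond its critical value in 5 of them. About 1 in 20 groups would be picked by chance. Measured as the distance to the nearest mouse over the full range, the result was 0.542 for Eif3f (MSE replicate 5, low), 0.589 for Eif3k (MSE replicate 1, low), 0.578 for Eif4a1 (MSE replicate 8, high) and 0.581 for Eif4e3 (MSE replicate 1, high, at 183 millionths). Eif4e gave 0.755, with normal-diet replicate 3 at 360 millionths from the mean of 16 mice. As deposited, none of these 5 genes had an unadjusted p under 0.05.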

How the results depend on the processing

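No member passed an adjusted p of 0.05 under any alternative, nor 0.1 as deposited. Over the 11 members named with full values, adjusted p ran from 0.162 to 1, and 10 of 40 values under the 4 scalings turned direction. Several other alternatives change the variance or the test and cannot turn one. Counts at an unadjusted p under 0.05 were 6 higher and 2 lower as deposited. They became 3 and 1 after quantile normalization (4.57% and 3.87% of all genes) and 0 and 1 after centring (0.863% and 0.401%). A trended robust variance gave 3 and 1 (2.57% and 3.92% of all genes). The mean of probe sets gave 2 and 0 (2.52% and 4% of all genes, median 0.06 SDs). All 111 probe sets gave 10 and 4 (2.63% and 3.9% of all probe sets naming 1 gene, median 0.08 SDs). The lower count was 1 among genes above the median level (5.82% of the genes tested there) and 1 in the rank sum test (3.94% of all genes). With the replicate block, which pairs mice by number only, it was 5, with 8 higher, beside 5.34% and 3.53% of all genes, and 5 of 8 MSE mice correlated best with their own number. Eif4ebp1 (unadjusted p 0.039) and Eif6 (unadjusted p 0.0356) were among the lower genes there. Medians were 0.42 SDs after quantile normalization and 0.41 SDs after centring. Without MSE replicate 6, quantile normalization gave 3 and 1 (3.62% and 5.04% of all genes) and a median of 0.35 SDs. Centring without it gave 0 and 1 (0.616% and 0.94% of all genes) and a median of 0.00 SDs. Leaving out single mice gave 5 to 6 higher and 1 to 3 lower, beside 2.17% to 2.96% and 3.44% to 4.7% of all genes. Medians then ran from 0.04 to 0.27 SDs, and 0 to 1 genes had diets that did not overlap. The lower count was 1 without MSE replicates 1, 3, 4 or 6 or normal-diet replicates 2, 5, 6 or 8, and 3 without MSE replicates 5 or 8 or normal-diet replicate 1. After quantile normalization Eif1a turned to 0.05 SDs, Eif2b1 to 0.67, Eif4ebp1 to 0.36 and Eif6 to 0.32 (0.65, 0.28 and 0.11 for the last 3 without MSE replicate 6). Values under that scaling follow ranks among all probe sets, so these turns cannot decide whether the deposited differences hold. After centring Eif5a turned to 0.28 SDs, Eif2b1 to 0.29 and Eif4ebp1 to 0.33, but without MSE replicate 6 they lay at -0.32, -0.30 and -0.21 SDs. Numbers of genes higher, after quantile normalization and after centring, were 2 and 3 for scanning, 4 and 5 for eIF2B, 2 and 3 for repressors, and 2 and 2 for subunit joining. Quantile normalization gave 6 for cap binding, 7 for initiation partners and 1 for Eif1a. Centring gave 2 for eIF5A, 8 for the stress response, 13 for mTORC1 and Mnk input, 11 for initiation partners and 12 for elongation. Centring shifts all genes alike. Other causes were not tested.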
